A study of Rattus norvegicus with 6 samples.

Results

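The genes described here carry fatty acids through a cell: they take them up, activate them, build and modify them, store them and oxidise them in mitochondria. The set is a list of 39 rat genes, chosen by name, and a gene was found on the array through the RefSeq accession given for its probe. A probe was found for 38 of the 39, all but Plin3, and these 38 genes had 43 probes. Of them 36 could be tested, among 10979 tested genes in all, because the probes of Acaca and Acacb, the acetyl-CoA carboxylases that make malonyl-CoA, were well above background on 0 of the 6 arrays.

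RNA came from primary Leydig cells of Sprague-Dawley rats, the steroid-making cells of the space between the seminiferous tubules, and each sample was read on a 1-colour Agilent array. The exosome group, 3 samples, was given exosomes (small secreted membrane vesicles) of primary rat Sertoli cells, the nurse cells inside the tubules, at 5 µg/ml for 24 h. The untreated group, 3 samples, received none, and both groups were grown in F12/DMEM medium with 10% fetal bovine serum at 34 °C and 5% CO2. The labels number the samples 1 to 3 in each group without saying whether they are separate animals or cultures, and the p-values therefore rest on sample-to-sample spread alone, which may be technical.

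A long-chain fatty acid crosses the plasma membrane with the help of CD36 and of fatty acid transport proteins, is bound in the cytosol by fatty acid binding proteins, and is trapped when an acyl-CoA synthetase joins it to coenzyme A. The acyl-CoA can then be elongated, desaturated, esterified to triglyceride by diacylglycerol acyltransferases, or passed over the mitochondrial membranes by the carnitine palmitoyltransferases. Inside, each turn of beta-oxidation runs through an acyl-CoA dehydrogenase, an enoyl-CoA hydratase, a hydroxyacyl-CoA dehydrogenase and a thiolase. Leydig cells hold lipid droplets, and fatty acids in them serve as fuel, as membrane lipid and as partners of stored cholesterol, the substrate of steroid synthesis. The PPAR nuclear receptors bind fatty acids and regulate many genes of these routes.

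Levels below are log2 signals relative to the 75th percentile of their own array, so 0 stands for that percentile, and a change is the exosome mean minus the untreated mean on this log2 scale, ± SE, with n = 3 per group. A gene rose or fell where limma gave an adjusted p (Benjamini-Hochberg over all 20433 tested probes) below 0.05. Each gene was read by its tested probe of highest mean signal, so a rise or fall is that of 1 probe. Among 257 genes with 2 tested probes, both past the test, the probes moved in the same direction in 133 and in opposite directions in 124. Over all genes 43.1% passed the test, 18.9% higher and 24.1% lower in exosome cells, and the median change was -0.10. Gene spots well above background made up 67.2% to 72.2% of an exosome array and 72.6% to 75.6% of an untreated one. The groups were not scanned together: the untreated arrays share 1 scan, exosome 1 and 2 share another, and exosome 3 has its own, so scan and group cannot be told apart, and within no scan can the groups be compared. Of 10 marker genes of Leydig cells 7 were tested. The levels of Star, Hsd3b1, Hsd11b1 and Fdx1, genes of steroid synthesis and metabolism, were between 4.24 (Fdx1, untreated 2) and 6.77 (Hsd3b1, exosome 3). Cyp11a1 ran from 0.34 (exosome 1) to 1.27 (untreated 1) and Insl3 from -0.19 (exosome 2) to 0.23 (untreated 3). Cyp17a1 was dim, from -4.72 (exosome 3) to -3.97 (untreated 3), and was well above background on 2 exosome and 3 untreated arrays. Lhcgr and Nr5a1, for the luteinising hormone receptor and a steroidogenic transcription factor, were well above background on 0 arrays, and Hsd17b3, the enzyme that makes testosterone, on 1.

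Fatty acid genes moved both ways: 8 rose, 9 fell and 19 did not pass the test, so 47.2% passed, beside 43.1% of all genes. In 14 members all exosome arrays lay above all untreated ones and in 10 below, where over all genes the groups did not overlap in 61.5%, 29.1% above and 32.4% below. At 2-fold or more and past the test, 1 member was higher (Elovl6) and 1 lower (Slc27a1), beside 2.18% and 5.47% of all genes. Elovl6 entered the test through its exosome arrays alone, with 0 of 3 untreated arrays above background. Its fitted change of 1.23 is therefore no measured difference, and its place among the 8 rises adds no support. Elovl6 also passed the test with no filter on dim probes, but not with the normexp background correction. The other members' changes ran from -1.004 (Slc27a1) to 0.95 (Cd36), and the median over the 36 was 0.07, beside -0.10 over all genes. Members both rose and fell in 3 of the 6 roles, uptake, synthesis and mitochondrial oxidation. Among uptake genes Cd36 rose while Slc27a1, Slc27a4 and Fabp3 fell. Both activation genes that passed, Acsl1 and Acsl3, rose. Acly and Elovl6 of synthesis rose while Fads1 fell, Dgat1 of storage fell, and of mitochondrial oxidation Acads, Hadh and Echs1 rose while Cpt1a, Acadm and Hadha fell. These rises and falls also divided by the series of the probe names, as given below. Without untreated 2 or without untreated 3, 0 of 10979 genes passed limma's test (smallest adjusted p 0.0578 and 0.0576; 4641 and 4768 genes at an unadjusted p below 0.05), so 0 members did. Without exosome 1, 976 genes passed, with 2 members higher and 1 lower (2.84% and 6.05% of all genes), and without exosome 3, 2915 genes, with 4 members higher and 5 lower (10.1% and 16.4%). With scan as a random block 7 members rose, all but Echs1, and 9 fell (14.1% and 18.5% of all genes). No scan held arrays of both groups, so this fit cannot remove a scan difference between them.

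**Figure D1:**
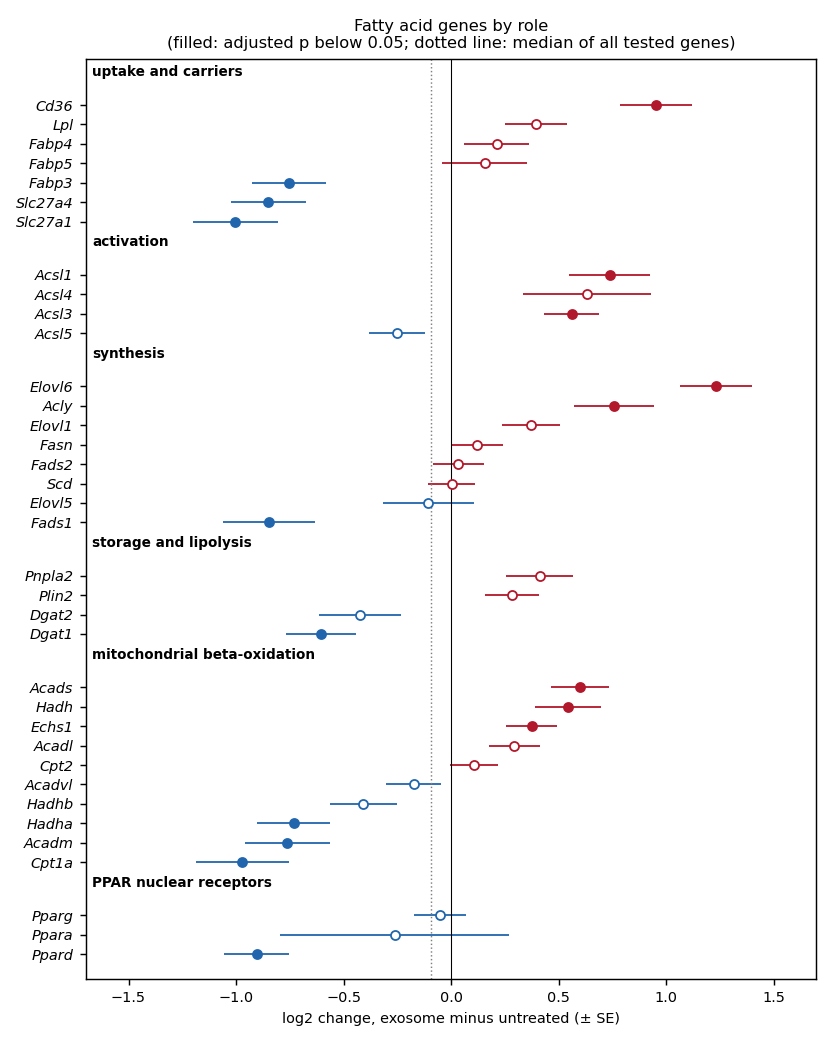
Log2 change, exosome minus untreated, of the 36 tested fatty acid genes, grouped by role (horizontal axis; points are changes from limma, bars are ± SE, n = 3 per group; filled points have an adjusted p below 0.05; the dotted line is the median of all tested genes, -0.10). Filled points lie on both sides of 0 in uptake, synthesis and mitochondrial beta-oxidation, from -1.004 for Slc27a1 to 1.23 for Elovl6, whose untreated arrays were not above background.

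Of 7 tested genes of uptake and cytosolic transport, 1 rose and 3 fell, with a median change of 0.16. Cd36, the membrane receptor that eases entry of long-chain fatty acids, stood at -0.71, -1.23 and -0.78 on the exosome arrays, against -1.92, -1.75 and -1.90 on the untreated arrays. All 3 exosome arrays lay above all 3 untreated ones, and the change was 0.95 ± 0.17 (adjusted p = 0.0137), a 1.94-fold rise. A second, dimmer probe of Cd36 also rose, by 0.65 ± 0.15 (adjusted p = 0.0194).

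Slc27a1 encodes the fatty acid transport protein FATP1. It stood at -1.86, -1.39 and -2.14 on the exosome arrays, against -0.79, -0.82 and -0.76 on the untreated arrays. The exosome arrays were all lower, exosome 2 being the nearest to the untreated ones, and the change was -1.004 ± 0.20 (adjusted p = 0.0153), a 2.01-fold fall. Slc27a4 encodes its relative FATP4 and stood at -2.74, -2.27 and -2.79 on the exosome arrays, against -1.60, -1.77 and -1.88 on the untreated arrays. The groups again did not overlap, with a change of -0.85 ± 0.17 (adjusted p = 0.0162). Fabp3, the heart-type fatty acid binding protein, stood at 0.06, 0.07 and 0.35 on the exosome arrays, against 0.66, 0.89 and 1.18 on the untreated arrays. It fell by 0.75 ± 0.17 (adjusted p = 0.0196), again without overlap.

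The other 3 uptake genes did not pass the test. Lpl, the lipase that frees fatty acids from lipoprotein triglyceride, stood at 0.17, 0.03 and -0.12 on the exosome arrays, against -0.18, -0.39 and -0.53 on the untreated arrays. Its groups did not overlap, yet the change of 0.39 ± 0.14 (adjusted p = 0.0681) missed the threshold. Fabp4, the adipocyte-type binding protein, changed by 0.21 ± 0.15 (adjusted p = 0.299), and under quantile normalization by 0.53 with an adjusted p of 0.0291, which ends on the other side of the threshold. Fabp5, the epidermal-type binding protein, changed by 0.16 ± 0.20 (adjusted p = 0.55), with overlapping groups.

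The stretches around the starts of Cd36 and Slc27a1 are shown because, among members whose window the sequence table holds, they had the largest rise and the largest fall. They are RefSeq sequence of rat assembly GRCr8, 250 bases before to 50 bases after the gene start, at chr4:18246332-18246631 for Cd36 and chr16:18312717-18313016 for Slc27a1, each printed 5′ to 3′ on the plus strand, the strand of the gene. Capitals mark short motifs found on either strand. In Cd36 this is TTTATA, the TATA box letters TATAAA on the opposite strand. In Slc27a1 they are TGACCT, the nuclear receptor core motif AGGTCA on the opposite strand, and CCAAT.
Cd36: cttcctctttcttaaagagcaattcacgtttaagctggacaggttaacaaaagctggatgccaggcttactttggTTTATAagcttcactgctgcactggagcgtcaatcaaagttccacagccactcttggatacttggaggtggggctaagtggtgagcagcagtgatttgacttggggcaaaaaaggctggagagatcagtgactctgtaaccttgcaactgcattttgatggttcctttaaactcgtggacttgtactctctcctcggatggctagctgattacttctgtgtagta
Slc27a1: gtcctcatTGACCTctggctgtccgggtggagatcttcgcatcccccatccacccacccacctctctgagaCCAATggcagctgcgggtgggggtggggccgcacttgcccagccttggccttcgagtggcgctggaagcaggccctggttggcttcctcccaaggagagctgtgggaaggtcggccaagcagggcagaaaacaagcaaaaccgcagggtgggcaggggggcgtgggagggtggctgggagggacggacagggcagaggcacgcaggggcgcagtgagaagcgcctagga

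Windows were held for 29 of the members and for 33469 starts in all. TATAAA stood in 13.8% of member windows and 14.2% of all windows, AGGTCA in 17.2% of member windows and 16.2% of all, and CCAAT in 34.5% of member windows and 37.5% of all. The GC box GGGCGG was found in 62.1% of member windows against 33.1% of all, 5 of 7 windows of genes that rose and 4 of 7 of genes that fell. The member windows were also richer in G and C, with medians of 62.7% for genes that rose, 65% for genes that fell and 63.7% for genes not past the test, beside 51.7% over all windows. A PPAR-type tandem of AGGTCA with 1 base between the copies matched 0 of the 29 windows and 0.0538% of all, and the sterol-type motif TCACNCCAC matched 0 member windows and 1.12% of all. A match is a run of letters only, both strands were searched, and no motif in the list overlaps another by its letters except AGGTCA within its tandem and within the longer TCAAGGTCA, which was in 0 of the member windows.

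**Figure D2:**
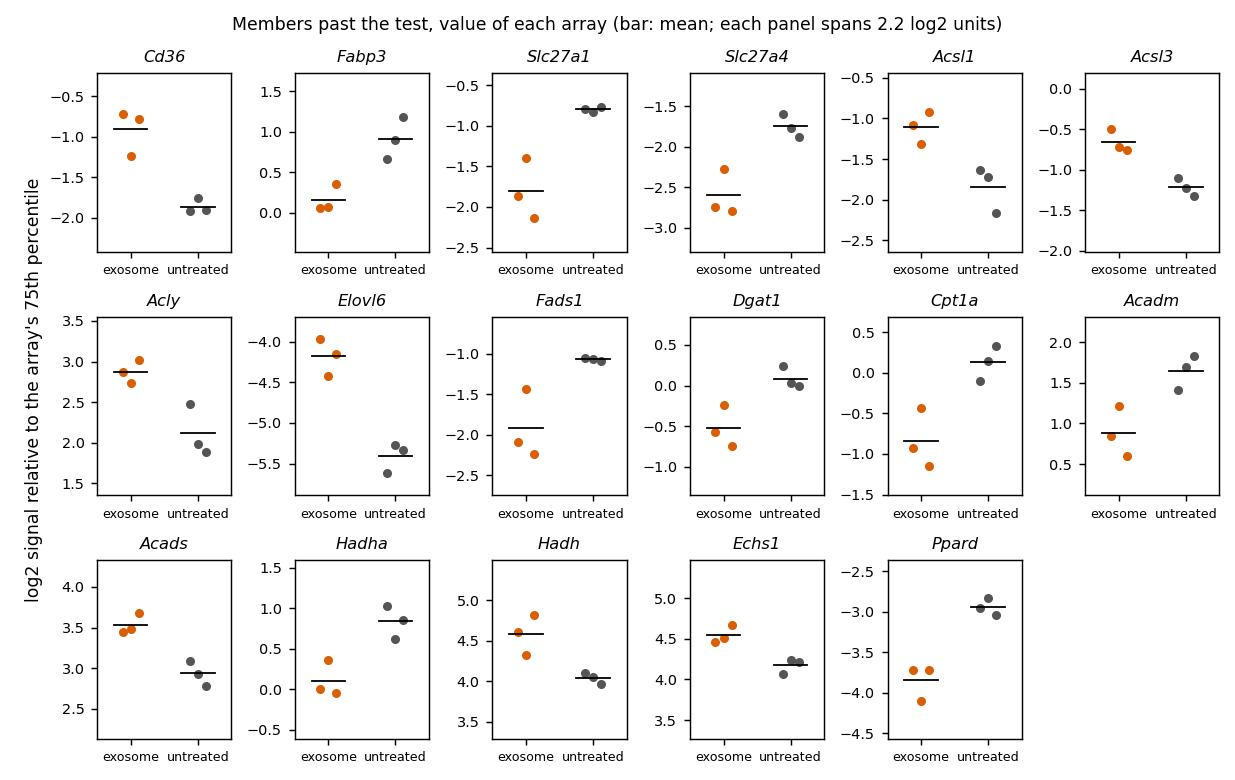
Log2 signal relative to the 75th percentile of the array (vertical axis) of the 17 fatty acid genes past the test, with 1 point per array, exosome arrays left of untreated arrays for each gene. No gene has overlapping groups, and for Slc27a1 and Fads1 the untreated points lie close together while the exosome points spread.

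Activation, the joining of a fatty acid to coenzyme A, had a median change of 0.60 over 4 tested synthetases, of which 2 rose and 0 fell. Acsl1, the synthetase that channels fatty acids to oxidation and to triglyceride, stood at -1.09, -1.31 and -0.91 on the exosome arrays, against -1.63, -1.72 and -2.17 on the untreated arrays. It rose by 0.74 ± 0.19 (adjusted p = 0.0252) without overlap. Acsl3, the synthetase found on the endoplasmic reticulum and on growing lipid droplets, stood at -0.50, -0.71 and -0.75 on the exosome arrays, against -1.10, -1.23 and -1.32 on the untreated arrays. It rose by 0.56 ± 0.13 (adjusted p = 0.0196), and its arrays did not overlap either.

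Acsl4 prefers arachidonic acid and has been studied in steroid-making cells. It stood at -1.53, -2.54 and -2.33 on the exosome arrays, against -3.14, -2.60 and -2.55 on the untreated arrays. Exosome 2 lay just above untreated 3, so the groups did not overlap, but exosome 1 stood far above the other two and the change of 0.63 ± 0.30 (adjusted p = 0.131) did not pass the test. Acsl5, a mitochondrial synthetase, changed by -0.25 ± 0.13 (adjusted p = 0.166), with exosome 2 inside the untreated range.

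Synthesis had 8 tested genes, of which 2 rose and 1 fell, with a median of 0.08. Acly, which splits citrate into the acetyl-CoA used for fatty acid and sterol synthesis, stood at 2.87, 2.74 and 3.02 on the exosome arrays, against 2.48, 1.99 and 1.89 on the untreated arrays. All exosome arrays were higher, and the change was 0.76 ± 0.19 (adjusted p = 0.023), or 1.69-fold. Fasn, the synthase that builds palmitate, changed by 0.12 ± 0.12 (adjusted p = 0.457), with overlapping groups. Scd, the stearoyl-CoA desaturase, stood at -1.92, -1.84 and -1.97 on the exosome arrays, against -1.84, -1.98 and -1.93 on the untreated arrays. Its change was 0.00 ± 0.11 (adjusted p = 0.983), with overlapping groups.

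Elovl6 lengthens palmitate to stearate. Its brighter probe was well above background on 3 of 3 exosome arrays and 0 of 3 untreated arrays, and it stood at -3.96, -4.42 and -4.15 on the exosome arrays, against -5.62, -5.27 and -5.34 on the untreated arrays. The fitted ratio of exosome to untreated was 2.35-fold (adjusted p = 0.0131 in limma's fit). A second ratio took, on each untreated array, the higher of the probe's own signal and the dimmest signal counted as well above background. It was 2.33-fold. These ratios barely differ, so 2.33-fold cannot be read as a lower limit, and the untreated level was not measured. A probe that passes the filter only where it is high had to differ, so this p adds no support. With the normexp background correction the change of Elovl6 was 0.12 and it was not past the test. Its second probe was well above background on 0 arrays.

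Fads1 makes arachidonic and eicosapentaenoic acid in the last desaturation of their route. It stood at -2.08, -1.44 and -2.23 on the exosome arrays, against -1.06, -1.06 and -1.09 on the untreated arrays. The untreated arrays lay within a narrow band and all exosome arrays lay below it, with a change of -0.85 ± 0.22 (adjusted p = 0.0254). Fads2, which catalyses an earlier desaturation in the same route, stood at -1.52, -1.45 and -1.36 on the exosome arrays, against -1.55, -1.52 and -1.35 on the untreated arrays. Its groups overlapped and its change was 0.03 ± 0.12 (adjusted p = 0.832). Elovl5, the elongase between these desaturases, changed by -0.11 ± 0.21 (adjusted p = 0.706).

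Elovl1, an elongase of saturated very long chains, gave readings that depend on the probe. The brighter probe changed by 0.37 ± 0.13 (adjusted p = 0.0642) and stood at 4.36, 4.21 and 4.53 on the exosome arrays, against 4.13, 3.94 and 3.92 on the untreated arrays. The dimmer probe of Elovl1 stood at 0.63, 0.90 and 0.58 on the exosome arrays, against 1.38, 1.40 and 1.64 on the untreated arrays, a change of -0.77 ± 0.14 (adjusted p = 0.0144) in the opposite direction. Neither direction can be given to the gene from these probes.

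**Figure D3:**
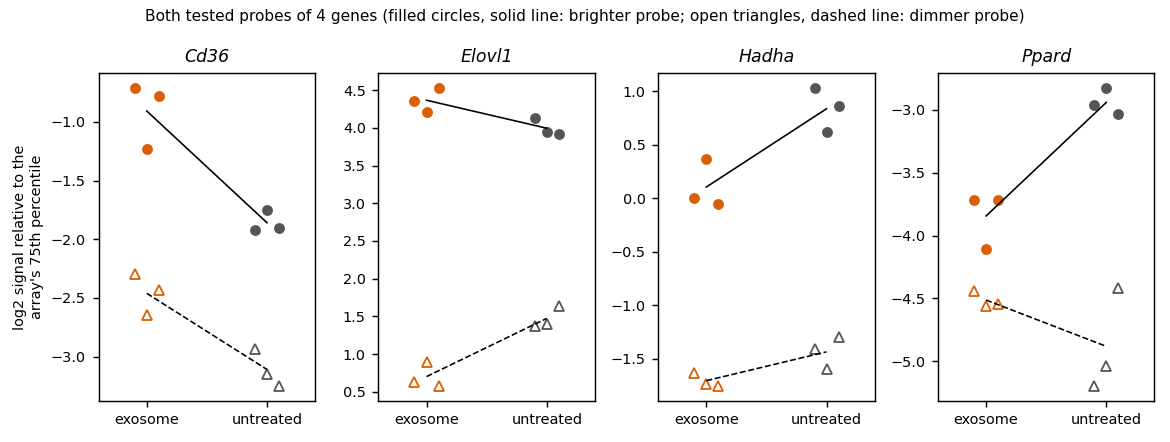
Log2 signal relative to the array's 75th percentile (vertical axis) of both tested probes of 4 fatty acid genes, 1 point per array, exosome left and untreated right; lines join the group means of the brighter (filled, solid) and the dimmer (open, dashed) probe. The lines of Cd36 and of Hadha slope the same way, while those of Elovl1 and of Ppard slope in opposite ways.

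Storage and lipolysis had 4 tested genes, 0 higher and 1 lower, with a median change of -0.07. Dgat1, a diacylglycerol acyltransferase that completes triglyceride, stood at -0.57, -0.24 and -0.74 on the exosome arrays, against 0.24, 0.04 and -0.01 on the untreated arrays. It fell by 0.60 ± 0.16 (adjusted p = 0.0292), and the groups did not overlap. Dgat2, which catalyses the same step and belongs to another protein family, stood at -0.51, -0.29 and -0.86 on the exosome arrays, against -0.28, -0.23 and 0.12 on the untreated arrays. Its groups did not overlap, but the change of -0.42 ± 0.19 (adjusted p = 0.119) missed the threshold. Plin2, the coat protein of lipid droplets, changed by 0.28 ± 0.12 (adjusted p = 0.111). Pnpla2, the lipase that starts the breakdown of stored triglyceride, changed by 0.41 ± 0.16 (adjusted p = 0.0761). In both Plin2 and Pnpla2 all exosome arrays stood above all untreated ones. Under quantile normalization Pnpla2 passed the test, with a change of 0.63 and an adjusted p of 0.0447.

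Mitochondrial oxidation had 10 tested genes, 3 higher and 3 lower, with a median of -0.03. The entry step is Cpt1a, the liver-type carnitine palmitoyltransferase of the outer mitochondrial membrane, which is inhibited by malonyl-CoA. It stood at -0.93, -0.44 and -1.15 on the exosome arrays, against -0.10, 0.15 and 0.34 on the untreated arrays. All exosome arrays were lower, and the change was -0.97 ± 0.22 (adjusted p = 0.0187), a 1.96-fold fall. Cpt2, its partner on the inner membrane, changed by 0.11 ± 0.11 (adjusted p = 0.467).

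The 4 acyl-CoA dehydrogenases, which differ in the chain length they accept, did not move as a block. Acads, for short chains, stood at 3.44, 3.48 and 3.68 on the exosome arrays, against 3.09, 2.93 and 2.78 on the untreated arrays. It rose by 0.60 ± 0.14 (adjusted p = 0.0193). Acadm, for medium chains, stood at 0.85, 1.21 and 0.60 on the exosome arrays, against 1.42, 1.70 and 1.83 on the untreated arrays. It fell by 0.76 ± 0.20 (adjusted p = 0.0262), and neither gene's groups overlapped. Acadl, for long chains, changed by 0.29 ± 0.12 (adjusted p = 0.0905) without overlap, and Acadvl, for very long chains, by -0.17 ± 0.13 (adjusted p = 0.303) with overlap, and neither passed the test.

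The later steps divided as well. Hadha and Hadhb encode the alpha and beta subunits of the trifunctional protein, which handles long chains at the inner membrane. Hadha stood at 0.00, 0.36 and -0.05 on the exosome arrays, against 1.03, 0.62 and 0.86 on the untreated arrays. Its groups did not overlap, and it fell by 0.73 ± 0.17 (adjusted p = 0.0204). The dimmer probe of Hadha changed by -0.27 ± 0.12 (adjusted p = 0.124), the same direction but not past the test. Hadhb stood at 1.58, 1.92 and 1.52 on the exosome arrays, against 1.90, 2.14 and 2.21 on the untreated arrays, with exosome 2 inside the untreated range, and its change was -0.41 ± 0.16 (adjusted p = 0.0776). With an adjusted p of 0.04995 by quantile normalization, 0.0498 in the authors' table and 0.0431 by normexp, Hadhb lies at the threshold.

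Hadh and Echs1 encode soluble matrix enzymes for shorter chains. Hadh, the hydroxyacyl-CoA dehydrogenase, stood at 4.61, 4.32 and 4.82 on the exosome arrays, against 4.10, 4.04 and 3.96 on the untreated arrays. It rose by 0.54 ± 0.15 (adjusted p = 0.0331). Echs1, the enoyl-CoA hydratase, stood at 4.46, 4.51 and 4.67 on the exosome arrays, against 4.07, 4.24 and 4.22 on the untreated arrays. All exosome arrays lay above the untreated ones for both genes. The rise of Echs1, 0.37 ± 0.12 (adjusted p = 0.0464), was past the test in the chosen setting and lost in 7 of 11 other settings, among them quantile normalization (adjusted p = 0.132).

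Hadha and Hadhb stand head to head on chromosome 6 of GRCr8, on opposite strands, with their starts 301 bases apart, so that the windows around their starts share 200 bases. The Hadha window, chr6:31907551-31907850, is shown because both subunit genes start beside it. It is printed 5′ to 3′ on the plus strand, the strand of Hadha. Capitals mark CCGCCC, the GC box GGGCGG on the opposite strand, and ATTGG, the letters CCAAT on the opposite strand.
Hadha: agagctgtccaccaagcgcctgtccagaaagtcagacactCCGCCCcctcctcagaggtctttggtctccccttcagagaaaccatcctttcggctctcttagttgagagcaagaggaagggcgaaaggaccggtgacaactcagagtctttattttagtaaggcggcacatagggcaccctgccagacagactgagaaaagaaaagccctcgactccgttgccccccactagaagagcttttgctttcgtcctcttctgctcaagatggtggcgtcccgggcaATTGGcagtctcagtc

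The 3 PPAR genes gave 0 rises and 1 fall. The brighter probe of Ppard stood at -3.71, -4.11 and -3.71 on the exosome arrays, against -2.96, -2.83 and -3.04 on the untreated arrays. It fell by 0.90 ± 0.15 (adjusted p = 0.0132) without overlap. A dimmer Ppard probe changed by 0.37 ± 0.21 (adjusted p = 0.203) and was well above background on 3 exosome arrays and 1 untreated array. The fall was not past the test when both probes were averaged, nor under cyclic loess normalization (adjusted p = 0.053). Pparg, the receptor best known from fat cells, changed by -0.05 ± 0.12 (adjusted p = 0.757). Ppara, the receptor that drives oxidation genes in liver, was well above background on 1 exosome array and 2 untreated arrays, and its change of -0.26 ± 0.53 (adjusted p = 0.713) carries the widest error of the set.

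A wider list of 124 other genes of the same routes, chosen by function, had 92 tested genes. Of these 17 rose and 16 fell, 35.9% of the list beside 43.1% of all genes, and the median change was 0.02. By role, tested genes that rose and fell numbered 1 and 3 of 14 in uptake and carriers, 2 and 0 of 10 in activation and thioesterases, 0 and 2 of 13 in synthesis, 6 and 3 of 17 in storage and lipolysis, 7 and 7 of 27 in oxidation, and 1 and 1 of 11 among transcription factors and kinases. Among the 3 storage falls, Fitm1 was well above background on 0 exosome and 3 untreated arrays. It passed the filter only through the group where it is high, so its place in the count adds no support. Its change was -0.11 by quantile and 0.23 by cyclic loess normalization (adjusted p = 0.64 and 0.242 in limma). The genes named next, of smallest p, are of the oxidation list.

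Crot, the peroxisomal carnitine octanoyltransferase, stood at 3.12, 2.71 and 3.06 on the exosome arrays, against 2.04, 2.18 and 2.13 on the untreated arrays. It rose by 0.85 ± 0.15 (adjusted p = 0.0134). Etfb, the beta subunit of the flavoprotein that takes electrons from the acyl-CoA dehydrogenases, stood at 4.15, 3.95 and 4.35 on the exosome arrays, against 3.47, 3.23 and 3.08 on the untreated arrays and rose by 0.89 ± 0.16 (adjusted p = 0.0141). Abcd3, a peroxisomal membrane transporter of fatty acyl groups, rose by 0.69 ± 0.13 (adjusted p = 0.0146). The groups did not overlap in any of these 3 genes.

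Acaa2, a mitochondrial thiolase, stood at 1.65, 1.27 and 1.54 on the exosome arrays, against 2.47, 2.59 and 2.76 on the untreated arrays. It fell by 1.12 ± 0.15 (adjusted p = 0.0131). Cpt1c, the brain-type carnitine palmitoyltransferase of the endoplasmic reticulum, stood at -1.52, -1.15 and -1.75 on the exosome arrays, against -0.27, -0.35 and -0.30 on the untreated arrays and fell by 1.17 ± 0.17 (adjusted p = 0.0131). Neither gene had overlapping groups.

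Genes beside these were picked after their values were seen. Etfa, the alpha subunit, and Etfdh, the oxidoreductase that passes its electrons to ubiquinone, rose by 0.57 ± 0.14 (adjusted p = 0.0248) and 0.88 ± 0.18 (adjusted p = 0.0161), so all 3 genes of this electron route rose, while the dehydrogenases that feed it included 1 that rose and 1 that fell. Cpt1b, the muscle-type isoform of the entry step, stood at 1.07, 0.89 and 1.18 on the exosome arrays, against 0.60, 0.24 and 0.03 on the untreated arrays and rose by 0.76 ± 0.18 (adjusted p = 0.0207), opposite in direction to Cpt1a and Cpt1c. Cpt1b has 2 probes on the array, and these values are of 1 of them.

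Signal strength and probe design moved with the changes. Over all genes, ordered by mean signal into 10 equal bins, the median change was -0.61 in the dimmest bin and 0.24 in the brightest, and the share of genes that rose was 3.1% and 29.7%. Among the members the 8 that rose had mean signals from -4.79 to 4.36, with a median of 0.78, and the 9 that fell from -3.39 to 1.27, with a median of -0.36. The probe names on this array fall into 4 series by their prefix. Over all genes the median change was 0.06 for names starting A_42, 0.01 for A_43, -0.25 for A_44 and -0.01 for A_64. Of the members, 10 were read by A_42 probes (1 rose, 2 fell), 7 by A_43 (5 rose, 0 fell), 10 by A_44 (0 rose, 7 fell) and 9 by A_64 (2 rose, 0 fell). Over all genes of a series, 25.3% rose and 20.2% fell for A_42, 22.6% and 21% for A_43, 13% and 30% for A_44, and 21.2% and 21.2% for A_64. The 5 A_43 rises were Acsl1, Acsl3, Acads, Hadh and Echs1. The 7 A_44 falls were Fabp3, Slc27a1, Slc27a4, Fads1, Dgat1, Cpt1a and Hadha. Rises and falls among the member oxidation genes thus lay in different series, the rises in A_43 and the falls in A_44 (Cpt1a, Hadha) and A_42 (Acadm). The change of Echs1, 0.37, stood beside a median of 0.36 for genes of its signal bin and series. The part of signal and probe series in the members' changes was not tested.

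**Figure D4:**
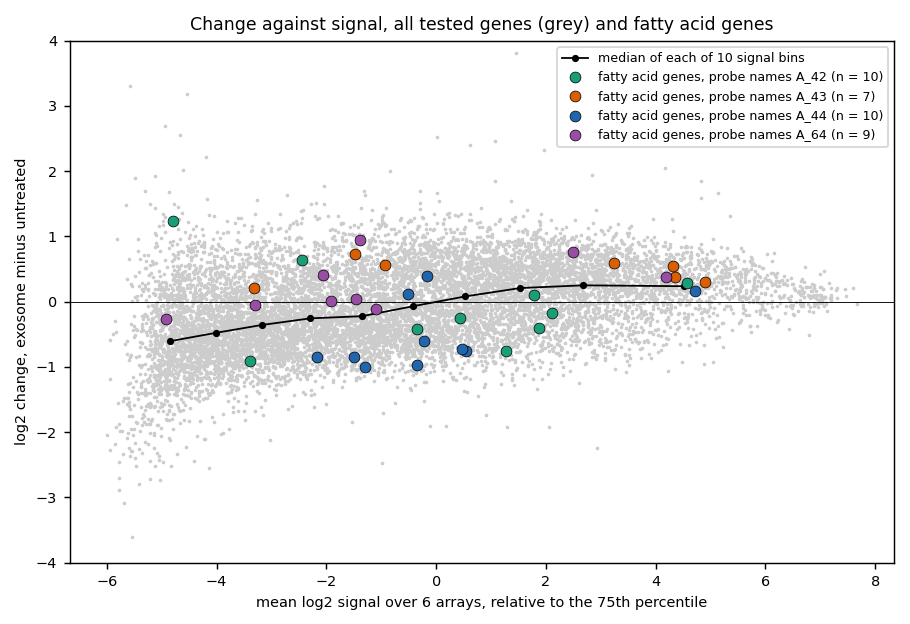
Log2 change, exosome minus untreated (vertical axis), against mean log2 signal over the 6 arrays relative to the 75th percentile (horizontal axis). Grey points are the 10979 tested genes, the black line joins the medians of 10 signal bins, and coloured points are the 36 fatty acid genes by probe name series; the line climbs from -0.61 to 0.24 between the dimmest and the brightest bin, and most A_44 points lie below it.

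The 17 members past the test kept the sign of their change in every setting run, leave-one-out fits included. None of them had overlapping groups, so leaving out an array could not reverse a sign, and those fits add no support. The filters and the replicate block act mostly on the p-value, the change of Cd36 being 0.952 in each, so kept signs there add little. Cd36, Slc27a1, Acsl3, Acly and Cpt1a also passed the test in all 11 other fits that keep all arrays. The 2-fold minimum is not counted among the 11, and of these genes only Slc27a1 met it. The split between rises and falls depended on the scaling: with arrays centred on their medians, 16 members rose and 3 fell (33.8% and 7.98% of all genes), and the median change of all genes moved to 0.22, against -0.10 with the 75th percentile, 0.01 with quantile and 0.03 with cyclic loess normalization. The falls of Fabp3, Slc27a4, Fads1, Dgat1, Acadm and Hadha were not past the test with median centring. Exosome 2 was the exosome array nearest to the untreated mean for 12 of the 17 members, as it was for 78.3% of all genes past the test.

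**Figure D5:**
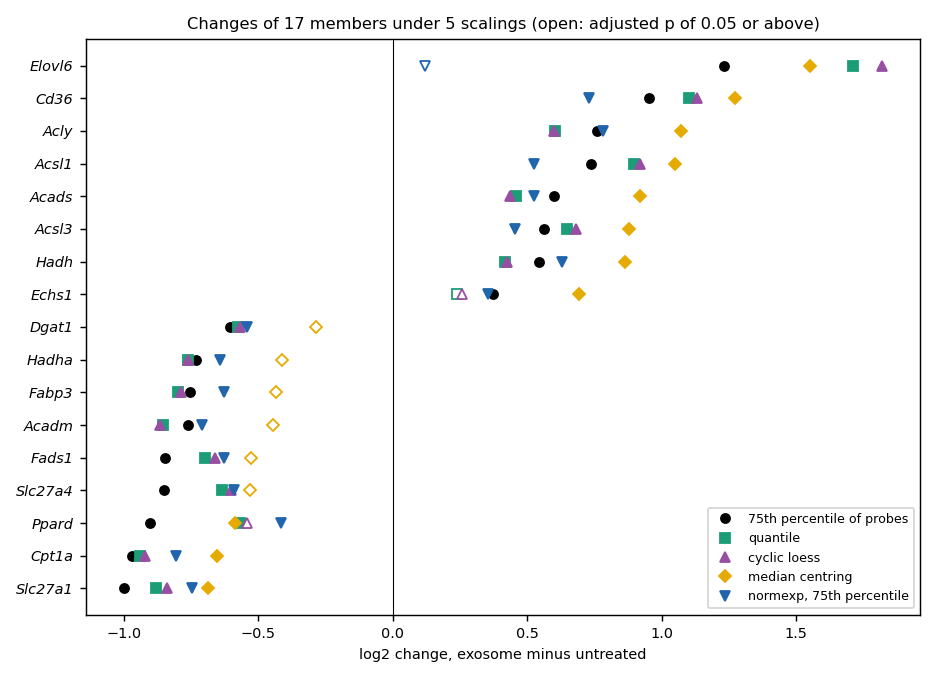
Log2 change, exosome minus untreated, of the 17 fatty acid genes past the test (rows) under the 75th percentile, quantile, cyclic loess, median and normexp settings (coloured points). Open points have an adjusted p of 0.05 or above. Each gene keeps its sign in all 5 settings, median-centred points lie right of the 75th percentile points for each gene, and Elovl6 reads 0.12 with normexp.

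Levels of marker genes of other cells are given beside these results. Of 5 tested adipocyte markers, a list that shares Plin1, Plin4, Cidec and Lipe with the wider list, 1 rose (Retn, by 1.097 ± 0.22, adjusted p = 0.0153) and 0 fell; Adipoq was well above background on 1 array, and Cidec, Aqp7 and Cebpa on 0. Summed signals of that list, in units of the 75th percentile, ran from 10.8 to 12.6 on exosome arrays and from 9.79 to 11.1 on untreated arrays. Cfd, at 3.17 (untreated 2) to 3.58 (exosome 3), held by far the highest level of that list. For 16 macrophage markers, of which 1 rose and 4 fell, the sums were 111 to 121 on exosome arrays and 112 to 119 on untreated arrays. The 111 was of exosome 3, where Cd68 read -2.64, against 3.91 (untreated 1) to 4.17 (untreated 2) on the remaining arrays. For 7 tested endothelial markers (2 rose, 3 fell) they were 2.37 to 2.85 on exosome arrays and 1.85 to 2.09 on untreated arrays, with Tek and Tie1 above background on 0 arrays. Pecam1 held the highest level of that list and rose by 1.11 ± 0.20 (adjusted p = 0.014), while the median change of the list was -0.68 and Esam, Sox18 and Eng fell. Sertoli cell markers (9 tested, 1 rose, 3 fell) summed to 50.6 to 60.1 on exosome arrays and 59.9 to 70.8 on untreated arrays, with Amh above background on 0 arrays. Clu and Tf held the highest levels of the Sertoli list and changed by -0.93 ± 0.18 (adjusted p = 0.0146) and 0.27 ± 0.15 (adjusted p = 0.201). Peritubular myoid markers (7 tested, 0 rose, 3 fell) summed to 50.4 to 62.5 on exosome arrays and 74.1 to 78.7 on untreated arrays. Leydig cell markers (7 tested, 0 rose, 1 fell) summed to 225 to 276 on exosome arrays and 214 to 221 on untreated arrays, the one that fell being Cyp11a1, the enzyme that starts steroid synthesis. Hsd3b1 and Hsd11b1 held the highest levels of the Leydig list, and neither passed the test. They changed by 0.27 ± 0.13 (adjusted p = 0.128) and 0.31 ± 0.14 (adjusted p = 0.123), beside a median of 0.24 in their signal bin. The part of the cells of these lists in the changes of fatty acid genes was not tested. In RNA from whole cultures fewer cells of a type and less RNA per cell cannot be told apart.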

How the data were processed

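Per the file headers, each array file deposited by the authors holds fluorescence intensities read with Agilent Feature Extraction 11.0.1.1, and its processed intensity is corrected for background within the array but not scaled between arrays. The authors deposited a second table of log2 values; its columns share a median of 5.68 and a maximum of 17.0 and correlate at 0.996 or above with their own arrays, so it was taken as quantile normalized. The array was designed on build rn4.

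From the processed intensity, outlier spots were removed (388 to 572 per array), spots of a probe were averaged as log2 values, and each array's 75th percentile over probes was subtracted. Probes well above background on at least 3 of 6 arrays were tested with limma 3.58.1 (R 4.3.3; lmFit, eBayes, group as the only term), with Benjamini-Hochberg adjustment over all tested probes; the number of arrays limits the precision. A gene is its tested probe of highest mean signal. Symbols came from RefSeq accessions matched to a GRCr8 table (18005 of 30367 probes, 15168 genes), used for names only. Python 3.11.15, pandas 2.3.3, numpy 2.4.6 and matplotlib 3.10.9 did the rest, and the fit was tested on simulated data.

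The members, the wider list and the marker lists were chosen with earlier results of these data known. All members are accounted for by role, those past the test with every array's value; from the wider list the 3 rises and 3 falls of smallest p are named, except 1 fall that is not reported here and stays in the counts. Alternatives were quantile, median and cyclic loess scaling, the 75th percentile over spots, normexp, the authors' table, no or a stricter filter, replicate and scan blocks, a 2-fold minimum, the mean over probes, and leaving out each array. Cyclic loess and the spot percentile were added after seeing the data. Normexp (offset 50) used the median signal and median background, because the files used here hold no mean signal column. Deviations of same-numbered samples from their group means correlated at -0.087, -0.028 and -0.024. With 3 arrays per group these values cannot exclude that equal numbers mark a shared source, so pairing stays unknown.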

Additional observations from a re-analysis of the deposited data

How the results depend on the processing

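Of 712 alternative values of 42 results, 553 were classed as the same, 102 as weaker, 27 as stronger and 30 changed sign. For the change of a gene, the same means unchanged direction and side of the threshold, weaker means losing the threshold and stronger reaching it. For a count of genes, weaker and stronger mean a clearly smaller or larger count. Every sign change was of a gene not past the test, and the cause of these changes was not tested. With 8 members higher and 9 lower in the chosen setting, median centring gave 16 and 3, a 2-fold minimum 1 and 1, and leaving out an array between 0 and 8 and between 0 and 10; no filter gave 5 higher, where all genes gave 7.78%. Of the wider list, with 17 higher and 16 lower, median centring gave 30 and 6, a 2-fold minimum 0 and 5, and leaving out an array 0 to 19 and 0 to 20; no filter gave 10 higher, and the percentile over spots 25 lower, where 29.2% of all genes were lower. The lowest counts came without untreated 2 or untreated 3. With the replicate block 4 members were higher and 6 lower, and 8 and 12 of the wider list. The shares of all genes were 9.1% and 15% with the block, beside 18.9% and 24.1% without it. Whether the numbers pair the samples is not known.

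Sign changes were as follows. Quantile normalization gave 0.0038 for Elovl5, -0.032 for Cpt2, 0.18 for Ppara and 0.28 for Pparg. The authors' table gave 0.0022, -0.031, 0.18 and 0.28 for the same genes, and cyclic loess 0.034, -0.031, 0.39 and 0.30. Median centring gave 0.068 for Acsl5, 0.21 for Elovl5, 0.14 for Acadvl, 0.056 for Ppara and 0.27 for Pparg. The percentile over spots gave -0.092 for Scd and -0.061 for Fads2, and the mean over probes -0.20 for Elovl1. With 1 array left out, the changes ran from -0.013 to 0.31 for Fabp5, -0.033 to 0.043 for Scd, -0.31 to 0.038 for Elovl5, -0.0058 to 0.096 for Fads2, -0.87 to 0.15 for Ppara and -0.11 to 0.014 for Pparg. Elovl6 has no value where probes had to be above background on all 6 arrays. Signal over background limits Acaca, Acacb, Elovl6, Ppara and the dimmer Ppard probe most.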

Other observations

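Fads1 and Fads2 are neighbours on chromosome 1 of GRCr8, and their changes were -0.85 ± 0.22 and 0.03 ± 0.12 on the log2 scale, exosome minus untreated.

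Among storage genes of the wider list, picked after their values were seen, Agpat3, Agpat4 and Agpat5, acyltransferases of glycerolipid synthesis, rose by 0.58 ± 0.15 (adjusted p = 0.028), 0.62 ± 0.15 (adjusted p = 0.0228) and 0.69 ± 0.15 (adjusted p = 0.0177) in limma. Agpat3 and Agpat5 have 2 probes each on the array, and these values are of 1 probe per gene. Agpat2, the isoform whose loss causes lipodystrophy in humans, changed by -0.68 ± 0.15 (adjusted p = 0.0176), and Mgll, the lipase of monoglycerides, by -1.01 ± 0.20 (adjusted p = 0.0149). Dbi, the acyl-CoA binding protein, changed by 0.61 ± 0.14 (adjusted p = 0.0187). The liver X receptors Nr1h3 and Nr1h2 changed by 0.45 ± 0.14 (adjusted p = 0.0392) and -0.66 ± 0.13 (adjusted p = 0.0156).

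Probes of 1 gene can disagree on this array. Of 1493 genes with 2 tested probes, 257 had both past the test, 133 with both probes in the same direction and 124 in opposite directions. Most members past the test were read by 1 probe, so agreement between probes could not be checked for them.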
